A study of Homo sapiens with 6 samples.

Results

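The 9 genes described here are MDM2 and 8 classic transcriptional targets of p53, namely CDKN1A, BAX, BBC3, SESN1, GADD45A, FAS, ZMAT3 and TIGAR. They were chosen by symbol from 20442 genes in the expression table, and all 9 passed the expression filter that left 12461 genes for testing. Their RNA was measured by poly(A) RNA sequencing in 6 libraries of HK-2, a human cell line that was immortalized from kidney proximal tubule epithelium. In 3 libraries, labelled overexpression, the cells had received a lentivirus meant to overexpress HNRNPF, the gene of the RNA-binding protein hnRNP F. In the other 3, labelled control, they had received a control lentivirus, named in the treatment label as a control plasmid. All cells were grown for 72 h with 30 mM glucose or with 30 mM mannitol as its osmotic control. The labels do not say which medium each library came from, which promoter drove HNRNPF, or whether the cells were a clone.

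HNRNPF itself went against the labels. It was present at 322.83, 349.84 and 320.8 FPKM (sequenced fragments relative to transcript length and library size) in the libraries labelled overexpression, against 555.18, 563.36 and 588.68 FPKM in the libraries labelled control. The difference was a log2 fold change of -0.78 (SE 0.061, limma adjusted p = 1.07e-04), so each direction given for the p53 pathway follows the labels and would be opposite if they were exchanged. The study's methods list the delivered copy under a gene ID other than 3185, that of the human HNRNPF measured here. Whether the labels were exchanged, or the delivered copy was left out of the gene's value, was not tested. The labels speak of parallel wells and do not say that libraries were separate cultures. The study calls its replicates biological, without saying how they relate to the wells. The p-values rest on how far the libraries of a group differed, part of which may be technical, and the labels name no batch. The study's methods describe an adjustment for known batches with ComBat_seq, without naming the batches. They do not say whether the FPKM values carry it, and its effect on the p-values was not tested. Between 12396 and 12462 genes per library reached 1 FPKM, and FPKM does not carry the depth of a library. Of 18 proximal tubule markers, 12 were under 1 FPKM in every library, with LRP2, SLC22A6 and SLC22A8 at 0, while PAX8 was at 321.14 to 394.39 FPKM in the overexpression libraries, against 317.97 to 359.44 FPKM in the control libraries. Of its 6 tested markers GGT1 rose and CRYAB fell, 33.3% in all beside 24.4% of all tested genes (11.3% higher and 13.1% lower). The summed level of the 18 was 477.6 to 566.46 FPKM in the overexpression libraries, against 461.39 to 520.69 FPKM in the control libraries. Of 8 epithelial markers, 1 was under 1 FPKM (CDH1), and 3 of the other 7 fell (CDH16, KRT7 and KRT18, beside 13.1% of all tested genes called lower at an adjusted p under 0.05) while 0 rose, with a summed level of 1067.23 to 1092.75 FPKM in the overexpression libraries and 1103.69 to 1172.23 FPKM in the control libraries. Of 15 markers of other kidney and blood cells, 12 were under 1 FPKM, and the summed level of all 15 was 203.04 to 226.37 FPKM in the overexpression libraries, against 172.14 to 188.52 FPKM in the control libraries, mostly CD68. Of the 3 tested markers of this list COL1A1 rose (33.3%, beside 24.4% of all tested genes). The call of KRT18 was lost without overexpression replicate 1 (limma adjusted p = 0.0586), 2 (0.055) or 3 (0.0782), without control replicate 1 (0.0606) or 2 (0.0912), with TPM scaling (0.0568), without the variance trend (0.0567) and with the replicate number as a block (0.053), and that of KRT7 without control replicate 2 (0.0526). The part of these markers in the results was not tested, and in bulk RNA fewer cells of a type cannot be told apart from less RNA per cell.

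p53 is a transcription factor that is held at a low level by MDM2, a ubiquitin ligase that marks it for breakdown and whose own gene p53 switches on, which closes a feedback loop. When DNA damage or other stress frees p53, it binds a short element near its target genes and raises their transcription, with products that arrest the cell cycle, start cell death, repair DNA or adjust metabolism. In the kidney tubule this response is known from acute injury. HK-2 cells were immortalized with the E6 and E7 genes of a papillomavirus, and E6 directs p53 protein to breakdown, while the RNA of its targets can still be measured. No protein level was measured here.

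The element that p53 reads is a 10-base motif repeated end to end, which was searched for in RefSeq windows of GRCh38.p14 that run from 250 bases before to 50 bases after a transcript start. A match had the central C and G of both repeats and at most 3 of the 20 letters off the consensus, and since the consensus is its own reverse complement, a match holds for both strands. Windows were found for 8 of the 9 genes, and the one not matched was GADD45A. Matches lay in windows of 3 genes, and they are printed here because MDM2, FAS and SESN1 are genes of the set whose expression is described. Each line is 5′ to 3′ on the strand of the gene, with the 20-base element in capitals and 30 bases on either side.
MDM2, plus strand, chr12:68808893-68808972, element beginning 94 bases before a start: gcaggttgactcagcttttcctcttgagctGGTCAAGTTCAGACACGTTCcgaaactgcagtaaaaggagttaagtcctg
FAS, plus strand, chr10:88991279-88991358, element beginning 122 bases before a start: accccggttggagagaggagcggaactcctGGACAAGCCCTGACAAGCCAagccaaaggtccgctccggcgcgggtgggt
SESN1, minus strand, chr6:109008988-109009067, element beginning 49 bases before a start: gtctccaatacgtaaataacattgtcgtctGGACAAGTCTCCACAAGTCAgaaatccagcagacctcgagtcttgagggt
The elements of MDM2 and FAS matched 18 of 20 letters of the consensus and that of SESN1 matched 17. The same search matched 392 of all 35116 windows (1.12%) and 4 of the 16 windows of the 8 genes, with 2 overlapping windows sharing the MDM2 element. The limit of 3 letters was set after matches were seen, and the SESN1 element was 3 letters off. The genes were also chosen as known p53 targets, so the shares are a description and not a test. A match is a description of the letters and does not show binding, and these windows leave out elements that lie farther away. Among the 3 genes with a match, SESN1 was higher in the libraries labelled overexpression, while MDM2 and FAS did not pass the test.

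The classic targets did not move together between the groups. SESN1 rose 1.38-fold and GADD45A fell 1.30-fold in the libraries labelled overexpression, and the other 7 genes did not pass an adjusted p of 0.05. The 2 of 9 genes called (22.2%) stand beside 24.4% of all tested genes, with 1 called higher beside 11.3% and 1 called lower beside 13.1%. The log2 fold change was above 0 for SESN1 and ZMAT3 and below 0 for the other 7 genes. The median over the 9 genes was -0.085, against -0.013 over all tested genes, and the median size regardless of sign was 0.159 against 0.175. The share called among these genes was thus close to that among all genes. The libraries of both groups did not overlap for SESN1, GADD45A and CDKN1A, 3 of 9 genes (33.3%) beside 42.1% of all tested genes.

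**Figure D1:**
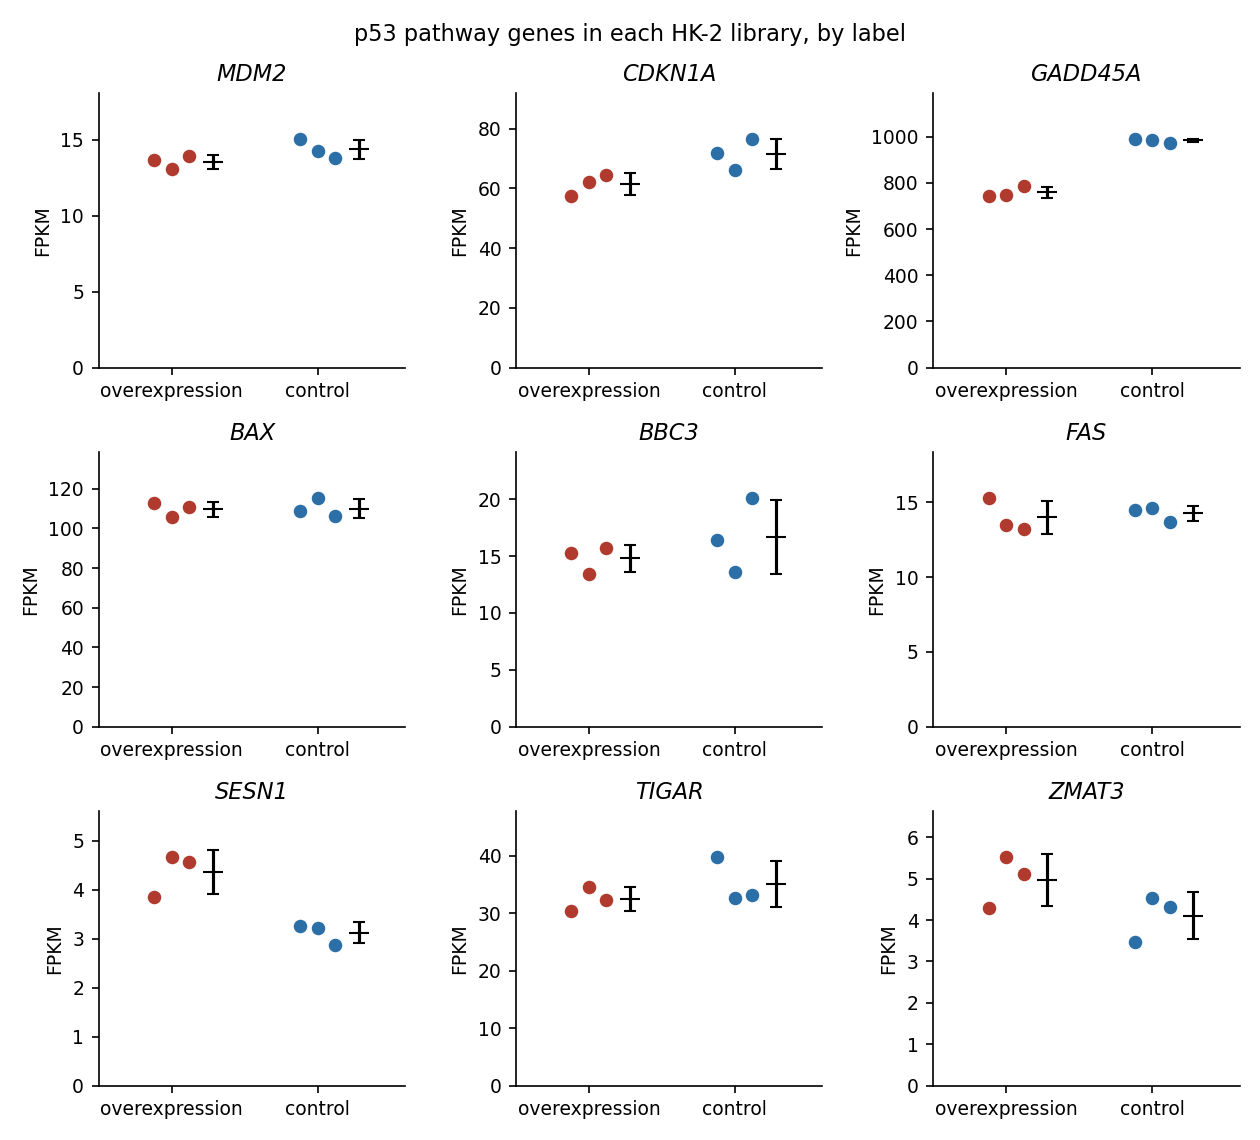
FPKM of the 9 genes in each HK-2 library, 1 panel per gene with the axis from 0; red points are the libraries labelled overexpression, blue points those labelled control, and the black bar and whiskers are the mean ± SD (n = 3 each). All GADD45A points are at or below 787.53 FPKM in the libraries labelled overexpression and at or above 975.21 FPKM in the control libraries, whereas the points of MDM2, BAX, BBC3, FAS, ZMAT3 and TIGAR overlap between groups.

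MDM2, the ubiquitin ligase of the feedback loop (gene ID 4193, chromosome 12, 68808172 to 68850686, GRCh38.p14), had 13.67, 13.06 and 13.92 FPKM in the libraries labelled overexpression, against 15.04, 14.27 and 13.83 FPKM in the control libraries. The highest library labelled overexpression lay above the lowest control library, so the groups overlapped. The mean was 13.6 ± 0.442 FPKM in the libraries labelled overexpression, against 14.4 ± 0.612 FPKM in the control libraries (SD, n = 3 each), with a log2 fold change of -0.08 (interval at 95%, -0.26 to 0.09, limma adjusted p = 0.444). The median shift of the 32 tested genes within 5 Mb of MDM2 was -0.14, larger than its own. MDM2 shares part of its locus with CPM, a carboxypeptidase gene that fell (41.84 to 48.01 FPKM in the libraries labelled overexpression, 52.01 to 59.82 FPKM in the control libraries, log2 fold change -0.35, limma adjusted p = 0.0126). The sources used here do not state whether fragments were counted by strand, so reads of overlapping genes could be mixed.

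MDM4, the MDM2 relative that inhibits p53, had 7.83, 8.21 and 8.4 FPKM in the libraries labelled overexpression, against 10.41, 9.47 and 8.76 FPKM in the control libraries. Its groups did not overlap, and the log2 fold change was -0.22 (interval at 95%, -0.44 to -0.01, limma adjusted p = 0.116). Without control replicate 3 it was -0.28 (0.0487). PPM1D, the p53-induced phosphatase that dampens the response, had 8.17, 7.08 and 8.16 FPKM in the libraries labelled overexpression, against 6.63, 6.66 and 6.2 FPKM in the control libraries (log2 fold change 0.26, limma adjusted p = 0.0900). It passed (0.32, 0.0297) when a trend on GC content, length and expression was removed, a correction added after the data were seen and called the GC trend here. Of 27 regulators, 1 rose and 4 fell, 18.5% in all beside 24.4% of all tested genes, with a median log2 fold change of -0.106. The gene that rose was PPP1R13L, the p53 inhibitor iASPP (0.47, limma adjusted p = 0.0413), and leaving out overexpression replicate 2 or 3 or control replicate 1 or 2 ended that call (adjusted p of 0.134, 0.0951, 0.13 and 0.141). Those that fell were TRIM24, a ubiquitin ligase for p53 (-0.44, 0.00684), TP53BP2, a co-factor of p53 in cell death (-0.36, 0.00458), SIRT1, which deacetylates p53 (-0.37, 0.0148), and TRIAP1, a p53-induced survival gene (-0.37, 0.0104), each as log2 fold change and limma adjusted p. TP53BP2 was not among the genes checked under other settings. The p53 relatives TP63 and TP73 were under the filter. TP63 was at 0 FPKM in all 3 libraries labelled overexpression and at 0.03 to 0.05 FPKM in the control libraries, and TP73 at 0.15 to 0.26 FPKM in the libraries labelled overexpression, against 0 to 0.15 FPKM in the control libraries.

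CDKN1A encodes p21, the inhibitor of cyclin-dependent kinases through which p53 arrests the cell cycle (gene ID 1026, chromosome 6, 36676463 to 36687332). It had 57.47, 62.19 and 64.52 FPKM in the libraries labelled overexpression, against 71.81, 66.28 and 76.46 FPKM in the control libraries. Every library labelled overexpression was below every control library, by 1.76 FPKM at the nearest. The mean was 61.4 ± 3.59 FPKM in the libraries labelled overexpression, against 71.5 ± 5.10 FPKM in the control libraries (SD, n = 3 each), and the log2 fold change of -0.22 (SE 0.074, 95% interval -0.38 to -0.05) missed the threshold at a limma adjusted p of 0.0557. It passed, at -0.28 and an adjusted p of 0.00786, with the GC trend removed, which was the only 1 of 11 other settings where it did. The limma adjusted p was 0.149 with TPM scaling, and 0.0692 to 0.169 in the 6 fits without 1 library, where it was never called.

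GADD45A encodes a small stress sensor that binds p21 and the replication clamp PCNA and slows the cycle at its G2 phase (gene ID 1647, chromosome 1, 67685201 to 67688334). It had 744.02, 748.11 and 787.53 FPKM in the libraries labelled overexpression, against 989.71, 987.28 and 975.21 FPKM in the control libraries. The groups were far apart relative to their spread, with a mean of 759.9 ± 24.0 FPKM in the libraries labelled overexpression, against 984 ± 7.77 FPKM in the control libraries (SD, n = 3 each). GADD45A fell 1.30-fold (log2 fold change -0.37, SE 0.058, interval at 95% of -0.50 to -0.24, limma adjusted p = 0.00297). It stayed past the threshold in each of the 6 fits without 1 library (adjusted p of 0.00319 to 0.0238) and under all 11 other settings. The median shift of its 25 tested neighbours was -0.08, and GADD45A lay 0.29 below it on the log2 scale. A change of this size or larger was found in 17.4% of all tested genes.

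Of the relatives of GADD45A, GADD45G rose while GADD45B did not pass. GADD45G, which shares the stress-sensor fold, had 11.38, 9.79 and 9.51 FPKM in the libraries labelled overexpression, against 6.06, 6.7 and 6.26 FPKM in the control libraries (log2 fold change 0.68, limma adjusted p = 0.00266). GADD45B averaged 183 ± 5.92 FPKM in the libraries labelled overexpression, against 193 ± 12.5 FPKM in the control libraries (SD, n = 3 each), with a log2 fold change of -0.07 (limma adjusted p = 0.440). Of 7 other CDK inhibitor genes 3 rose and 1 fell, 57.1% in all beside 24.4% of all tested genes. CDKN2C and CDKN2D rose (0.46 each, limma adjusted p of 0.00327 and 0.0122), and CDKN1B, the gene of p27, rose by 0.20 (0.0456), while CDKN1C, the gene of p57, fell (-0.47, 0.0130). The call of CDKN1B was lost without overexpression replicate 1 (0.0882), 2 (0.137) or 3 (0.0889) and without control replicate 1 (0.0997) or 2 (0.154). It was also lost without a filter (0.0502), with TPM scaling (0.0554), without the variance trend (0.0757) and with the replicate number as a block (0.0763). Without control replicate 2 the adjusted p was 0.0526 for CDKN2D and 0.0542 for CDKN1C, and without overexpression replicate 3 it was 0.0503 for CDKN1C.

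BAX, the effector that opens the outer mitochondrial membrane in cell death (gene ID 581, chromosome 19, 48954875 to 48961798), had 112.59, 105.55 and 110.75 FPKM in the libraries labelled overexpression, against 108.68, 115.21 and 106.04 FPKM in the control libraries. The 2 ranges covered nearly the same span. The mean was 109.6 ± 3.65 FPKM in the libraries labelled overexpression, against 110.0 ± 4.72 FPKM in the control libraries (SD, n = 3 each), with a log2 fold change of -0.0042 (interval at 95%, -0.14 to 0.13, limma adjusted p = 0.967). The sign of this value depended on the scaling, and the interval leaves room for a change of about 0.14 in either direction.

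BBC3 encodes PUMA, the BH3-only protein that p53 induces to trigger cell death (gene ID 27113, chromosome 19, 47220824 to 47232860). It had 15.31, 13.42 and 15.69 FPKM in the libraries labelled overexpression, against 16.41, 13.63 and 20.1 FPKM in the control libraries. Control replicate 3 was the highest, and the groups overlapped. The log2 fold change was -0.16 (interval at 95%, -0.45 to 0.14, limma adjusted p = 0.397), and without control replicate 3 it was -0.02.

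FAS encodes the cell-surface death receptor (gene ID 355, chromosome 10, 88964050 to 89017059). It had 15.28, 13.5 and 13.25 FPKM in the libraries labelled overexpression, against 14.47, 14.62 and 13.68 FPKM in the control libraries. The control range lay inside that of the libraries labelled overexpression, with a log2 fold change of -0.03 (interval at 95%, -0.22 to 0.16, limma adjusted p = 0.841). ACTA2, which overlaps FAS, was at 1.34 to 1.67 FPKM in the libraries labelled overexpression, against 1.1 to 1.41 FPKM in the control libraries, far below FAS.

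Of 13 tested BCL2 family partners of these death genes 1 rose and 2 fell, 23.1% in all and close to the 24.4% of all tested genes. BAD, a BH3-only protein, rose (log2 fold change 0.36, limma adjusted p = 0.00606), while the survival gene BCL2L2 fell (-0.74, 0.0147, and 0.0573 without control replicate 2). PMAIP1, the gene of the p53-induced BH3-only protein NOXA, had 267.53, 257.45 and 298.92 FPKM in the libraries labelled overexpression, against 361.53, 356.79 and 335.92 FPKM in the control libraries, and fell (-0.36, limma adjusted p = 0.00745, and -0.16, 0.083 with the GC trend removed). The survival genes BCL2 (-0.15), BCL2L1 (-0.09) and MCL1 (0.03) did not pass, though BCL2L1 did with the GC trend removed (-0.175, 0.0162). Of 8 tested genes of FAS signalling 1 rose (12.5%), FADD, the adaptor that joins the receptor to caspases, with 67.46, 72.03 and 75.59 FPKM in the libraries labelled overexpression, against 53.61, 59.96 and 60.74 FPKM in the control libraries (0.30, limma adjusted p = 0.0162). Without overexpression replicate 3, control replicate 1 or control replicate 2 its adjusted p was 0.0713, 0.0513 and 0.0505. CASP8, the initiator caspase, did not pass (0.17, 0.133) other than with the GC trend removed (0.26, 0.0135), and the ligand FASLG was at 0 to 0.13 FPKM in the libraries labelled overexpression, against 0 to 0.14 FPKM in the control libraries.

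SESN1 encodes sestrin 1, an antioxidant protein that restrains the growth kinase mTORC1 (gene ID 27244, chromosome 6, 108984309 to 109094846). It had 3.85, 4.66 and 4.56 FPKM in the libraries labelled overexpression, against 3.26, 3.22 and 2.87 FPKM in the control libraries. The groups did not overlap, and the mean was 4.36 ± 0.442 FPKM in the libraries labelled overexpression, against 3.12 ± 0.215 FPKM in the control libraries (SD, n = 3 each). SESN1 rose 1.38-fold (log2 fold change 0.47, SE 0.13, interval at 95% of 0.17 to 0.77, limma adjusted p = 0.0318), and 10.2% of all tested genes had a larger change. The call was kept without overexpression replicate 1 (adjusted p = 0.0348) and lost without overexpression replicate 2 (0.1) or 3 (0.107) and without control replicate 1 (0.0572), 2 (0.0831) or 3 (0.0524), with a log2 fold change of 0.41 to 0.55 throughout. ARMC2, which overlaps SESN1, was at 0.91 to 1.31 FPKM in the libraries labelled overexpression, against 0.73 to 1.5 FPKM in the control libraries. Of the relatives of SESN1, SESN2 averaged 81.9 ± 8.01 FPKM in the libraries labelled overexpression, against 87.6 ± 7.69 FPKM in the control libraries (SD, n = 3 each), with a log2 fold change of -0.10 (limma adjusted p = 0.428). It was -0.21 (0.0394) with the GC trend removed and -0.03 without control replicate 3. SESN3 was under the filter, at 0 to 0.08 FPKM in the libraries labelled overexpression, against 0.04 to 0.12 FPKM in the control libraries.

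TIGAR encodes a phosphatase that lowers fructose-2,6-bisphosphate and so slows glycolysis (gene ID 57103, chromosome 12, 4321213 to 4360028). It had 30.38, 34.65 and 32.35 FPKM in the libraries labelled overexpression, against 39.77, 32.6 and 33.12 FPKM in the control libraries. Control replicate 1 was the highest, the groups overlapped, and the log2 fold change was -0.11 (interval at 95%, -0.31 to 0.09, limma adjusted p = 0.388). Without control replicate 1 it was -0.02. Of the kinases that make the same metabolite, PFKFB4 rose, with a mean of 37.9 ± 1.26 FPKM in the libraries labelled overexpression, against 23.7 ± 0.791 FPKM in the control libraries (SD, n = 3 each), a log2 fold change of 0.67 (limma adjusted p = 2.98e-04). PFKFB3 rose by 0.32 (0.0155), a call lost without overexpression replicate 2 (0.0527) or control replicate 1 (0.0505) or 2 (0.0657). PFKFB2 did not pass (-0.09, limma adjusted p = 0.661).

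ZMAT3 encodes a zinc finger RNA-binding protein that p53 induces (gene ID 64393, chromosome 3, 179017223 to 179072513). It had 4.29, 5.52 and 5.11 FPKM in the libraries labelled overexpression, against 3.47, 4.54 and 4.32 FPKM in the control libraries. Overexpression replicate 1 lay below control replicates 2 and 3, and the log2 fold change was 0.27 (interval at 95%, -0.06 to 0.60, limma adjusted p = 0.200). Without control replicate 1 it was 0.16. Of its zinc finger relatives, ZMAT1 (-0.71, limma adjusted p = 0.00435) and ZMAT2 (-0.30, limma adjusted p = 0.0326) fell. ZMAT5 did not pass (0.06, limma adjusted p = 0.56). Over the 6 tested relatives of ZMAT3 and TIGAR, 2 rose and 2 fell, 66.7% in all beside 24.4% of all tested genes. The call of ZMAT2 was lost without overexpression replicate 2 (0.104) or 3 (0.0865), without control replicate 1 (0.0934) or 2 (0.134), without a filter (0.0564) and without the variance trend (0.0773).

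**Figure D2:**
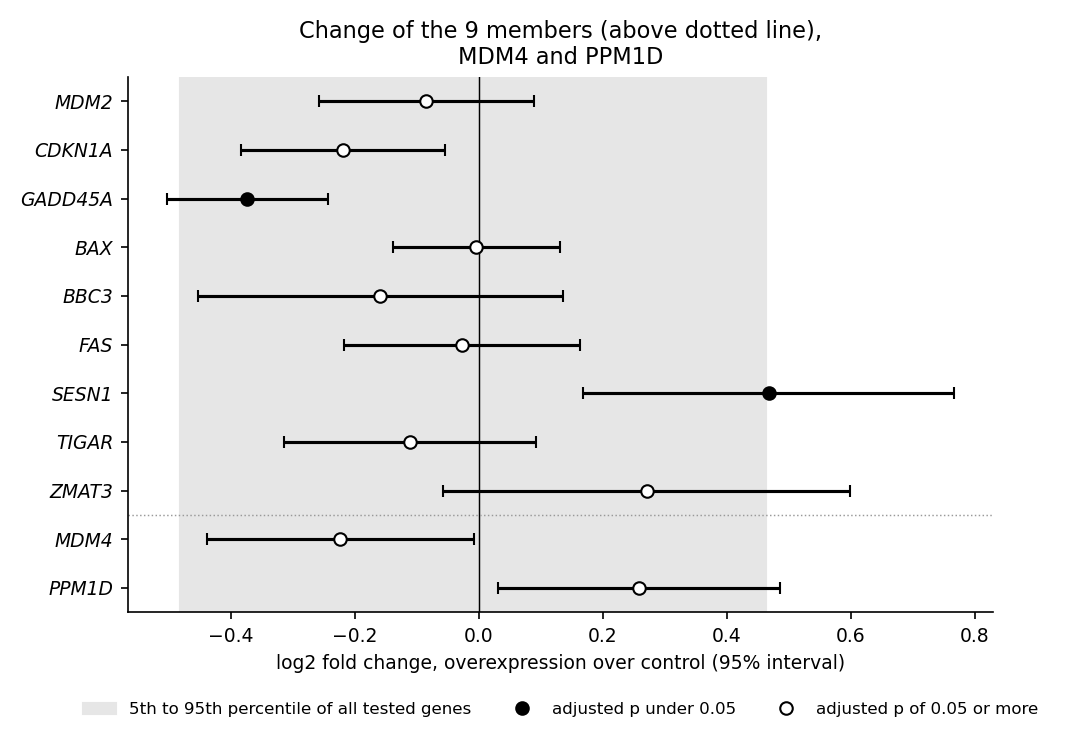
Log2 fold change of the libraries labelled overexpression over those labelled control (x axis, with 95% interval) for the 9 genes, and for MDM4 and PPM1D below the dotted line; filled points have a limma adjusted p under 0.05 and the grey band holds the 5th to 95th percentile of all tested genes (-0.482 to 0.464). GADD45A at -0.37 and SESN1 at 0.47 are the filled points, and SESN1 sits at the upper edge of the band.

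The 9 genes covered a wide range of levels. Per length, GADD45A was highest, at the 98.8th percentile of tested genes, followed by BAX (88.6), CDKN1A (80.7) and TIGAR (65.9), and in both groups the library ranges of these neighbours did not overlap. BBC3 (44.9), FAS (42.0) and MDM2 (41.7) came next, with overlapping ranges around 13 to 20 FPKM. ZMAT3 (17.5) and SESN1 (14.2) were lowest. Their ranges overlapped in the libraries labelled overexpression (4.29 to 5.52 FPKM for ZMAT3, 3.85 to 4.66 FPKM for SESN1) and not in the control libraries (3.47 to 4.54 FPKM for ZMAT3, 2.87 to 3.26 FPKM for SESN1). The median spread within groups was 0.095 on the log2 scale over these genes, against 0.114 over all tested genes.

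The genes whose values were most like those of CDKN1A over the 6 libraries were SUMO3, KIF12 and ACADS, each with Pearson's r of 0.99 on log2 values. For MDM2 they were YPEL1 (0.998), ANKRD12 (0.998) and DTWD1 (0.995). An r of at least 0.9 was reached by 183 tested genes (1.5%) for CDKN1A and by 617 (5.0%) for MDM2, and all of these values share the same 6 libraries and the difference between groups.

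Beyond the 9 genes, 129 further p53 targets were described by role, of which 114 were tested. Of these, 18 rose and 16 fell, 29.8% in all beside 24.4% of all tested genes (11.3% higher and 13.1% lower), with a median log2 fold change of 0.03. Without control replicate 2, 9 rose and 9 fell, and without overexpression replicate 2, 11 rose. The genes called in this wider set thus stood on both sides of 0.

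Among 15 tested arrest genes 2 rose and 3 fell, 33.3% in all beside 24.4% of all tested genes (11.3% higher and 13.1% lower). SFN, the gene of 14-3-3 sigma, which holds back entry into mitosis, had 13.49, 13.32 and 13 FPKM in the libraries labelled overexpression, against 7.61, 8.28 and 8.19 FPKM in the control libraries (log2 fold change 0.72, limma adjusted p = 7.05e-04). CDKN2AIP, a regulator of the ARF and p53 pathway, rose by 0.34 (0.0134, and 0.0504 and 0.0547 without overexpression or control replicate 2). GDF15, a stress cytokine, had 186.38, 202.2 and 209.28 FPKM in the libraries labelled overexpression, against 237.96, 240.35 and 277.61 FPKM in the control libraries (-0.34, 0.0130). SFN thus moved opposite to GDF15 and to GADD45A.

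Among 24 tested death genes 4 rose and 3 fell, 29.2% in all beside 24.4% of all tested genes (11.3% higher and 13.1% lower). TNFRSF10D, a decoy receptor for the death ligand TRAIL, had 51.06, 53.4 and 50.16 FPKM in the libraries labelled overexpression, against 32.05, 31.08 and 32.32 FPKM in the control libraries (log2 fold change 0.69, limma adjusted p = 1.91e-04). IGFBP3, which binds insulin-like growth factors, rose by 0.65 (3.82e-04), and PIDD1, a death-domain protein of the caspase-2 complex, rose by 0.44 (0.0241). The call of PIDD1 was lost without overexpression replicate 2 (0.0869) or 3 (0.0677) and without control replicate 1 (0.0643) or 2 (0.1). TRIAP1, listed here as well as under the regulators, fell.

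Of 8 tested DNA repair targets 1 rose and 1 fell, a share close to the 24.4% called among all tested genes (11.3% higher and 13.1% lower). DDB2, the damage-binding subunit of nucleotide excision repair, rose by 0.36 (limma adjusted p = 0.00725), while its partner in damage recognition XPC fell by 0.32 (0.0200). XPC lost its call without overexpression replicate 1 (0.0522) or 3 (0.0827), without control replicate 1 (0.0514) or 2 (0.0571) and with TPM scaling (0.0579). The neighbours of XPC had a median shift of -0.31.

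Of 24 tested metabolic and autophagy targets 2 rose and 7 fell, 37.5% in all beside 24.4% of all tested genes (11.3% higher and 13.1% lower). Their median log2 fold change was -0.071. CMBL, a hydrolase, had 7.64, 8.08 and 7.72 FPKM in the libraries labelled overexpression, against 15.41, 16.29 and 16.34 FPKM in the control libraries (-1.03, limma adjusted p = 1.07e-04). PLTP, a phospholipid transfer protein (-0.64, 5.47e-04), ALDH4A1, an enzyme of proline breakdown (-0.63, 0.00108), and FUCA1, a lysosomal fucosidase (-0.57, 9.07e-04), also fell. TIGAR belongs to the same role and was not called.

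Of 43 tested targets with other roles 9 rose and 2 fell, 25.6% in all beside 24.4% of all tested genes (11.3% higher and 13.1% lower). HRAS, the gene of a growth-signalling GTPase, had 51.83, 47.33 and 52.37 FPKM in the libraries labelled overexpression, against 27.73, 34.45 and 30.96 FPKM in the control libraries (log2 fold change 0.70, limma adjusted p = 9.89e-04). CYFIP2, a subunit of an actin-regulating complex (0.60, 0.0136), and PLXNB3, a plexin receptor for semaphorins (0.55, 0.0138), rose, and TNFAIP8, an inhibitor of cell death, fell (-0.61, 0.00484). Without control replicate 2 the adjusted p was 0.0611 for CYFIP2 and 0.0598 for PLXNB3, and without overexpression replicate 2 it was 0.0527 for PLXNB3.

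p21 also acts on genes that the DREAM complex holds down in arrested cells. Of 24 such genes, 8 rose and 1 fell, 37.5% in all beside 24.4% of all tested genes (11.3% higher and 13.1% lower), with a median log2 fold change of 0.112. CCNA2, the cyclin of S phase, had 98.8, 100.8 and 97.8 FPKM in the libraries labelled overexpression, against 82.71, 77.1 and 75.75 FPKM in the control libraries (0.34, limma adjusted p = 0.00511). The mitotic kinase PLK1 (0.33, 0.00555), BIRC5, the gene of survivin (0.29, 0.0154), and FOXM1, a transcription factor of the cell cycle (0.28, 0.0331), rose, while CDC25C, the phosphatase that starts mitosis, fell by 0.27 (0.0424). The neighbours of BIRC5 had a median shift of 0.261, close to its own change, against 0.095 for CCNA2, 0.008 for PLK1 and 0.076 for FOXM1. The count that rose was 3, 4 and 2 without overexpression replicates 1, 2 and 3, and 3 and 2 without control replicates 1 and 2. In these fits none fell. Over all tested genes the count that rose also varied, from 536 to 2079 in the fits without 1 library, against 1410 with all libraries. Of the genes named, the call of BIRC5 was lost without overexpression replicate 1 (0.0526) or 3 (0.0697) and control replicate 1 (0.0522) or 2 (0.061), and that of FOXM1 without overexpression replicate 2 (0.0987) or 3 (0.0509) and control replicate 1 (0.0917) or 2 (0.127). FOXM1 also lost its call without a filter (0.053) and without the variance trend (0.074). The call of CDC25C was kept only without control replicate 3 among the 6 fits without 1 library, with an adjusted p of 0.0601 to 0.146 in the other 5. Beside them, CDKN1A had a lower value in the libraries labelled overexpression that missed the threshold, and any link between these results was not tested.

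**Figure D3:**
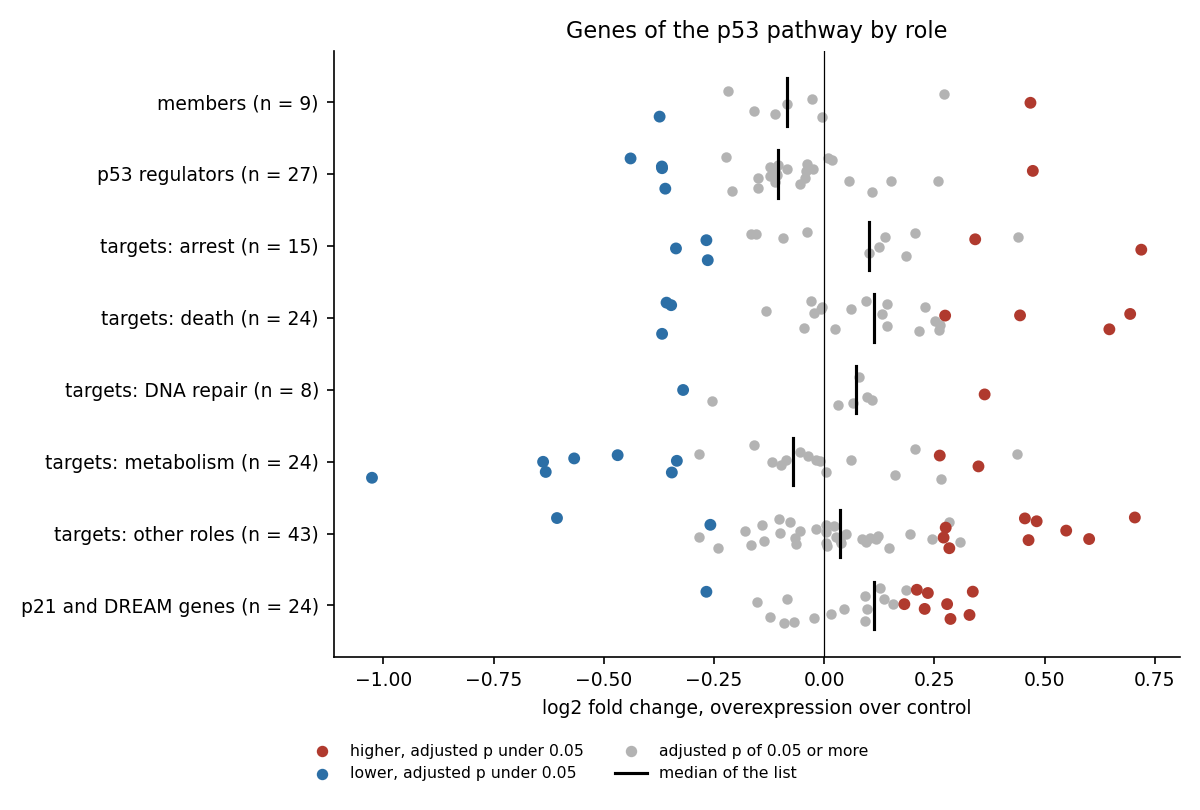
Log2 fold change of the libraries labelled overexpression over those labelled control (x axis) for the tested genes of the p53 pathway described here, by role (rows, number of genes in brackets); red points rose and blue points fell at a limma adjusted p under 0.05, grey points did not pass, the black line is the median of the list and the height of a point within its row is random. Called genes stand on both sides of 0 in every row, with 18 higher and 16 lower over the 5 rows of targets.

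**Figure D4:**
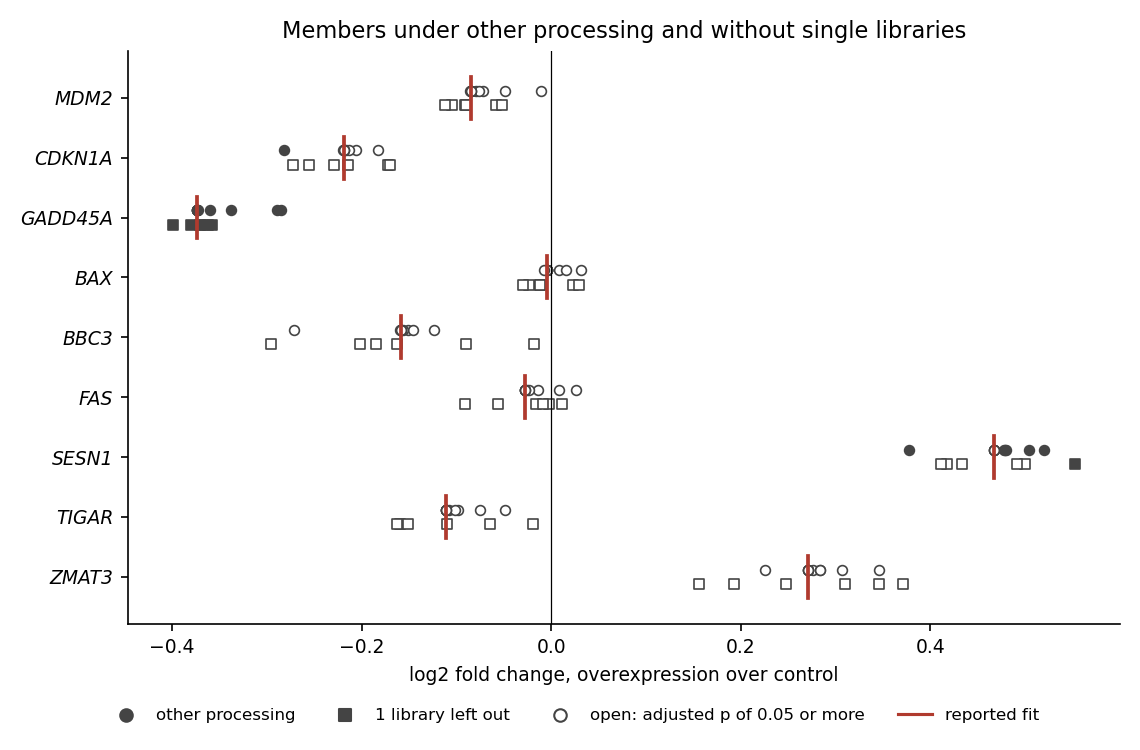
Log2 fold change of the 9 genes (x axis) under other processing settings (circles) and with 1 library left out (squares), filled where the limma adjusted p was under 0.05; the red line is the reported value. GADD45A is filled throughout, between -0.40 and -0.28, SESN1 keeps a value between 0.38 and 0.55 with mostly open squares, and the points of BAX and FAS lie on both sides of 0.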

How the data were processed

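The authors deposited FPKM values, 1 column per library. Per the labels and the study's methods, stranded paired-end libraries were made from poly(A) RNA, and trimmed reads were aligned to GRCh38 with HISAT2, keeping uniquely mapped reads. The counting tool and annotation are not given in the sources used here. FPKM scales by transcript length and library size, and does not correct for GC content or library makeup. The study's test on counts was replaced by limma 3.58.1 (R 4.3.3; trended eBayes, two-sided) on log2(FPKM + 0.1), which understates the change of low genes, for genes with a mean of at least 1 FPKM. Benjamini-Hochberg adjustment ran over all 12461 genes tested, with a threshold of 0.05.

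The genes and lists were chosen with earlier results of these data known. Genes named were the 9 members, HNRNPF, fixed regulators and relatives, up to 4 called genes of largest change per list, and the 3 most correlated with CDKN1A and MDM2. Some genes that the rule or the lists held are not reported here and were left out of the lists' counts, though not of the fit. CPM, ARMC2 and ACTA2 were named for overlapping a member. TP53BP2, ZMAT5 and PFKFB2 were named beside the called genes of their lists, and their values under other settings are not given. Identifiers and coordinates came from RefSeq (GRCh38.p14), which matched 20164 symbols (98.6%). The limit of 3 letters off the p53 consensus was set after matches were seen. Low values were searched for steps of whole fragments. At the best fitting depth 52.6% to 63.6% lay within 0.15 of a whole fragment. By chance 30.0% would do so at a fixed depth, and picking the best of many depths raises that share by an amount not measured. Depth was therefore not recovered from the values. The study lists read totals by medium, which the labels do not tie to these libraries, and they were not used here for a counting error. The limma procedure was tested on simulated data.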

Additional observations from a re-analysis of the deposited data

How the results depend on the processing

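The pseudocount was set to 1 or 0.01 and the filter dropped or moved to 5 FPKM. Scaling was by median of ratios, by quantiles or to TPM. The limma fit was run with no trend, with robust variances and with a replicate block. The median shift of neighbours was taken off (a value with no test), each library was left out, and a trend on GC content, length and expression was removed, a correction chosen after seeing the data. GADD45A and CDKN1A kept a negative value in all of them and SESN1 a positive one where it was tested. Without a filter SESN1 was 0.47 with an adjusted p of 0.0592, and at a filter of 5 FPKM neither SESN1 nor ZMAT3 was tested, so 0 members were higher. With the GC trend removed 2 members were lower, adding CDKN1A (-0.28, adjusted p = 0.00786). Relative to neighbours MDM2 was 0.0547, FAS 0.0285 and GADD45A -0.29. BAX turned positive with median-of-ratios (0.0087), quantile (0.0151) and TPM scaling (0.0316), and FAS with TPM (0.0083) and the GC trend removed (0.0256). Regulators called higher were 0 without a filter or without trend and 2 with the GC trend removed. DREAM genes called higher were 5 without a filter, 3 without trend and 13 with the GC trend removed. Those lower were 0 without a filter, with TPM, with the replicate block and with the GC trend removed. Other than for the replicate block, the share of all genes called under these settings is not given here. The counts are therefore not read as a result about a list. With 1 library left out, SESN1 was 0.41 to 0.55, BAX -0.03 to 0.0297, FAS -0.0909 to 0.0112 and MCL1 -0.0007 to 0.0874. The number of members called higher was then 0 to 1, of regulators higher 0 to 1, of other targets higher 9 to 25 and lower 9 to 17, of DREAM genes higher 2 to 9 and lower 0 to 1, and of all genes higher 536 to 2079 and lower 711 to 2175. Same-numbered libraries did not deviate together (correlations of 0.09, -0.09 and 0.01). With 3 libraries per group, this cannot settle whether equal numbers mark libraries that were prepared together. The replicate block gave 1469 genes higher and 1646 lower over the table, against 1410 and 1629 without it. The cause of these shifts was not tested, and what depth limits was not measured here.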
